A study of Bos taurus with 30 samples.

Results

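The microRNAs bta-miR-451, bta-miR-144 and bta-miR-486, known to be abundant in red blood cells, were followed through the anterior pituitary of 30 bull calves. They were 3 of 1030 mature miRNAs in the table, and the 3 of them were among the 419 that passed a filter on low reads. They were chosen by their measured diet contrast, as their mean levels had moved in opposite directions between 2 diets in these same libraries, so that the diet differences given here are a description and carry no test. What was tested was how each of the 3 varied with the rest of the table among calves fed the same diet, which the choice did not use.

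The calves were Holstein-Friesian bulls fed differently from 2 to 12 weeks of age. HI calves (n = 15) were given 1.5 kg of milk replacer in 10 litres a day with concentrate ad libitum. MOD calves (n = 15) were given 0.5 kg of milk replacer in 4 litres a day with 0.5 kg of concentrate. All were offered water and some hay. Each library came from the anterior pituitary of 1 calf, and calves were numbered within a diet only to name them. The calves came from several farms and sires, which the labels do not give for each calf.

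The anterior pituitary makes the hormones that drive growth, lactation, metabolism and reproduction, and it is densely supplied with blood. miR-451 and miR-144 are cut from a shared precursor transcript that erythroid transcription factors switch on as red cells mature. miR-451 is unusual in that Argonaute 2 rather than Dicer matures it, and it is used in plasma, beside the stable miR-23a, as a sign of burst red cells. miR-486 is also abundant in red cells, where its gene lies within that of the membrane protein ankyrin 1, but it is made in striated muscle too, and so is less particular to blood. In the RefSeq annotation of assembly ARS-UCD2.0, MIR451 and MIR144 were adjacent entries between ERAL1 and FLOT2, and MIR486 lay inside ANK1. In whole tissue, a lower content of blood and less of a miRNA in each red cell cannot be told apart.

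Depth was 6650492 to 11086523 reads on miRNAs in HI libraries and 7685030 to 9916490 in MOD libraries. Levels are in CPM (read counts scaled to library size and by the authors' TMM factors), on which scale a miRNA with 0 reads could lie as high as 0.266 to 0.419, the value of 3 reads. The endocrine miRNAs miR-375 and miR-7, which mark pituitary and islet cells, had means of 146057 and 17064 CPM, and the liver miRNA miR-122 had 0 reads in 17 of 30 libraries. A single calf stood apart. In HI calf 1, miR-143, a miRNA of smooth muscle and stroma, was at 181565 CPM, against 31533 to 80613 CPM in the other 29 calves. This calf also had the highest miR-451, the highest miR-144 and the highest sum of striated muscle miRNAs, and calls that were lost without it are named as such.

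The 3 miRNAs differed widely in level. miR-486 was the 16th most abundant miRNA by its mean, and made up 1.78% of the summed values in HI calves and 2.04% in MOD calves. miR-451 ranked 146th and miR-144 ranked 340th. In each of the 30 libraries miR-486 exceeded miR-451 and miR-451 exceeded miR-144. The median ratio of miR-486 to miR-451 was 173, with a range of 41.0 to 438, and the median ratio of miR-451 to miR-144 was 31.0, with a range of 17.1 to 46.6. Ratios between different miRNAs also carry the bias of adapter ligation and so are not ratios of molecules.

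bta-miR-451 was at 67.3 CPM in the lowest HI calf, with a median of 143.5 and a highest value of 403 CPM. In MOD calves it ran from 56.8 CPM through a median of 98.1 to 175 CPM. The diets overlapped, although 5 HI calves lay above the highest MOD calf, 3 MOD calves lay below the lowest HI calf and the MOD median was exceeded in 12 of 15 HI calves. The log2 difference, HI minus MOD, was 0.55 (standard error 0.21), taken on log2(CPM + 1) here and below.

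bta-miR-144 was the least abundant of the 3, with 21 to 110 reads in HI libraries and 15 to 45 in MOD libraries. Its level ran from 2.59 CPM through a median of 4.95 to 12.7 CPM in HI calves, and from 1.80 through 3.65 to 4.81 CPM in MOD calves. The highest MOD calf was exceeded by 8 HI calves, and the MOD median by 10 of 15. The log2 difference was 0.46 (standard error 0.15). At these low levels the 1 added to the CPM makes it smaller than on the CPM alone. It is therefore not to be ranked against that of miR-451. The ratio of mean CPM, HI to MOD, was 1.58 for miR-144 and 1.57 for miR-451.

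bta-miR-486 moved the other way. It ran from 10396 CPM through a median of 17259 to 24338 CPM in HI calves, and from 15438 through 20481 to 27356 CPM in MOD calves. Below the lowest MOD calf lay 4 HI calves, above the highest HI calf lay 4 MOD calves, and the MOD median was exceeded in 4 of 15 HI calves. The log2 difference was -0.27 (standard error 0.11).

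**Figure D1:**
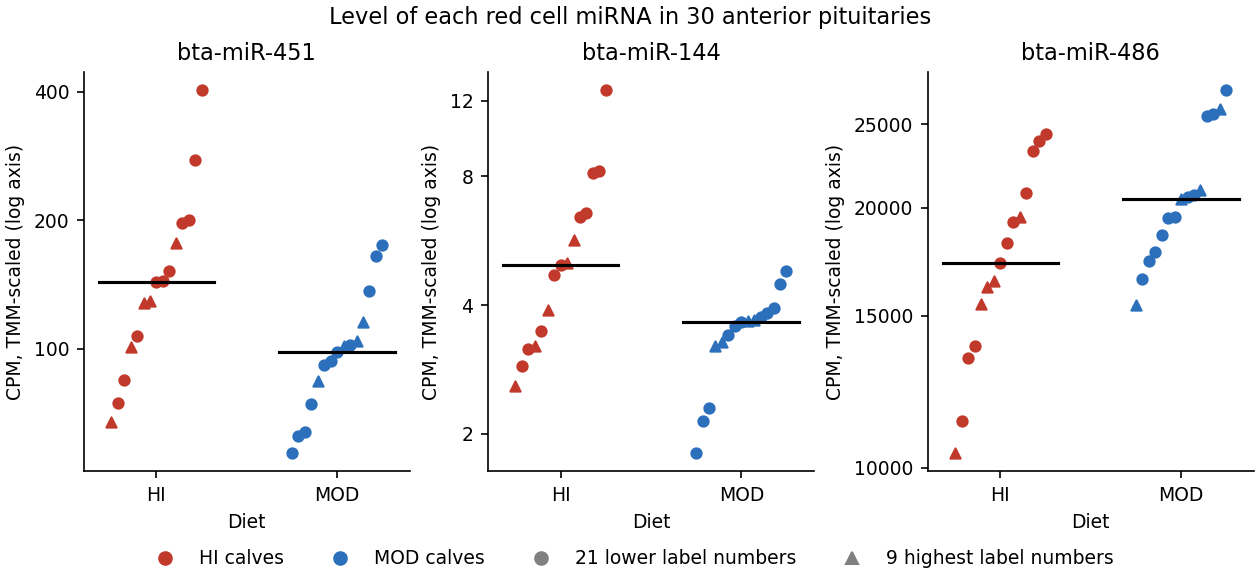
Level of each of the 3 miRNAs in CPM on a log axis, 1 point a calf, with the diet median as a black line and the 9 libraries with the highest label numbers as triangles. The HI median was above the MOD median for miR-451 (143.5 against 98.1 CPM) and miR-144 (4.95 against 3.65 CPM) and below it for miR-486 (17259 against 20481 CPM), with overlap in each panel.

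The spread among calves was wider on the HI diet for each of the 3, which was not tested. It includes HI calf 1, at 403 CPM of miR-451 and 12.7 CPM of miR-144. The highest values in the other 29 calves were 276 and 8.24 CPM. The coefficient of variation of miR-451 was 54.8% in HI and 34.3% in MOD calves, far above the 2.67% and 3.42% that counting error would give. For miR-486 it was 24.8% in HI and 17.9% in MOD calves, with counting error of 0.255% and 0.239%. For miR-144 it was 49.6% in HI and 23.8% in MOD calves, where counting error would give 14.4% and 18.5%. Among MOD calves miR-144 thus varied little beyond counting error, which limits the precision of its relations in that diet. These figures cover counting error only, as reads without molecular identifiers are not independent molecules.

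Ratios within a library, which no scaling changes, were set beside the levels after the data had been seen. The log2 ratio of miR-451 to miR-144 was 4.85 ± 0.31 in HI calves and 4.86 ± 0.43 in MOD calves (SD, n = 15 each). The log2 ratio of miR-486 to miR-451 was 6.91 ± 0.82 in HI calves and 7.73 ± 0.51 in MOD calves. The log2 ratio of miR-451 to miR-23a, the pair used to grade haemolysis in plasma, was -2.20 ± 0.68 in HI calves and -2.77 ± 0.48 in MOD calves. miR-23a itself had a median of 662 CPM on the HI diet and 665 CPM on the MOD diet.

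The 9 libraries whose label numbers were highest, from 5 HI and 4 MOD calves, had been found to differ from the other 21 in earlier work on these data. Within the 21 the log2 diet difference was 0.72 for miR-451, 0.61 for miR-144 and -0.19 for miR-486. Within the 9 it was 0.19 for miR-451, 0.15 for miR-144 and -0.41 for miR-486. The differences within the 9 rest on 5 HI and 4 MOD calves. The 3 were chosen for their direction over these same libraries, so its recurrence within either set is no further support. Without HI calf 1 the difference was 0.44 for miR-451 and 0.38 for miR-144. Libraries were also grouped into the 4 ranges into which the last 4 digits of their label numbers fall. The set of 9 was instead taken by the whole label number. With diet in the fit, limma called 1 of 419 miRNAs (0.239%) between these ranges at an adjusted p under 0.1. This was miR-2285c, named because it was the single call. The adjusted p was 0.929 for miR-451, 0.914 for miR-144 and 0.973 for miR-486.

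The relation between the 3 miRNAs was then asked among calves of the same diet. miR-451 and miR-144 rose and fell together among HI calves (Pearson r = 0.90, permutation p = 1e-05, which is the smallest that 100000 resamples can give; adjusted over the 6 relations of 3 pairs in 2 diets, 6e-05). Spearman's rho was 0.91 with the same p. Without HI calves 1 and 13, the farthest from the median of miR-451, r was 0.80 (permutation p = 0.00125), and within the 10 HI calves with lower label numbers it was 0.89. Among MOD calves r was 0.51 (permutation p = 0.0512, adjusted 0.154) and rho was 0.59 (permutation p = 0.0235, adjusted 0.0706), and without MOD calves 1 and 4 r was 0.34 (permutation p = 0.252). In a fit of both diets, miR-144 rose by 0.58 ± 0.09 (SE) on the log2 scale for each log2 unit of miR-451 (limma, adjusted p = 7.97e-05). The difference in this slope between the diets was 0.39 ± 0.18 (SE) and was not past the threshold (limma, adjusted p = 0.979). That p was adjusted over 418 miRNAs rather than 6 relations, and does not show that the slopes were alike.

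miR-486 did not follow either of them at this number of calves. With miR-451 its r was -0.09 among HI calves (permutation p = 0.736, adjusted 0.844; rho = -0.10, permutation p = 0.724) and 0.12 among MOD calves (permutation p = 0.660, adjusted 0.844; rho = 0.02, permutation p = 0.954). With miR-144 it was -0.06 among HI calves (permutation p = 0.844, adjusted 0.844; rho = -0.11, permutation p = 0.696) and 0.28 among MOD calves (permutation p = 0.322, adjusted 0.645; rho = 0.13, permutation p = 0.650). Without HI calves 1 and 13 the HI coefficients were -0.38 with miR-451 and -0.33 with miR-144. Over the 9 libraries with the highest label numbers, centred on their diet means, r was -0.75 with miR-451 and -0.54 with miR-144, and over the other 21 it was 0.05 with each. MOD calf 3, with the most miR-486 of the 30, had 62.5 CPM of miR-451, and HI calf 1, with the most miR-451, had 23917 CPM of miR-486.

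**Figure D2:**
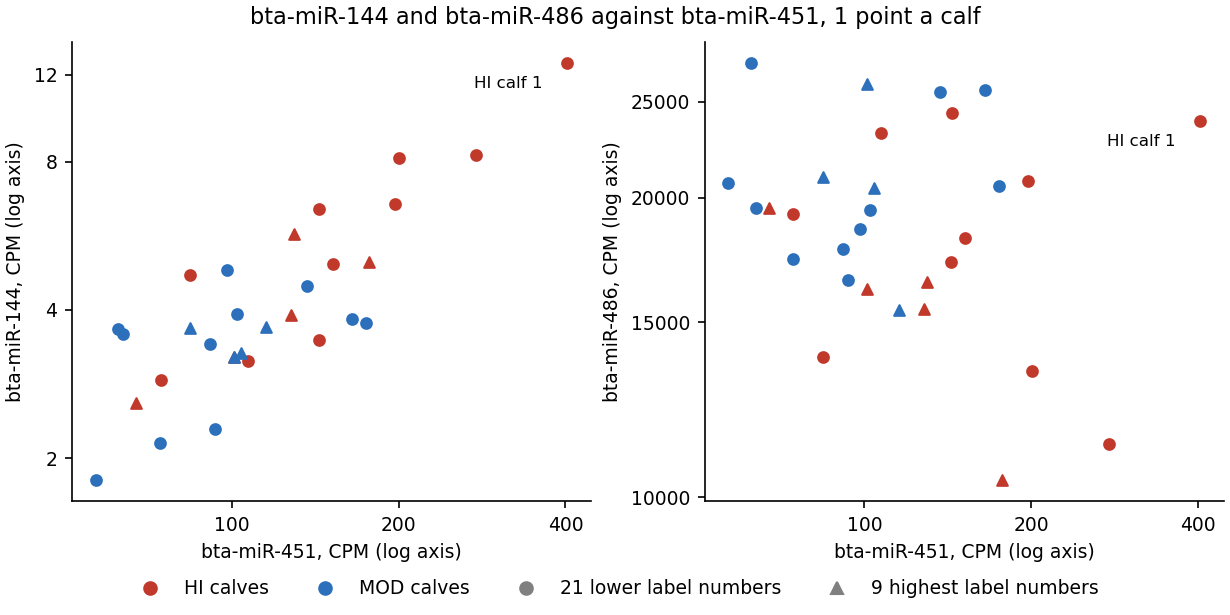
miR-144 (left) and miR-486 (right) against miR-451, each in CPM on log axes, 1 point a calf, coloured by diet. miR-144 climbed with miR-451 (r = 0.90 among HI and 0.51 among MOD calves), whereas no slope was detected for miR-486 (r = -0.09 and 0.12). HI calf 1 sits at the right of each panel, and without it the r of miR-486 among HI calves was -0.42.

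The rest of the table was tested against each of the 3 in turn with limma, with diet in the fit, over the other 418 miRNAs. At an adjusted p under 0.1, miR-451 was associated with 58 of 418 (13.9%), of which 26 (6.22%) rose with it and 32 (7.66%) fell. Without HI calf 1 the count was 7, which were among the 58, and without MOD calf 14 it was 27. miR-144 was associated with 2 of 418 (0.478%), 1 positive and 1 negative (0.239% each). miR-486 was associated with 21 of 418 (5.02%), 7 positive (1.67%) and 14 negative (3.35%), and without HI calf 15 the count was 5. The lists of miR-451 and miR-486 shared 0 miRNAs, but unrelated lists of 13.9% and 5.02% of the 418 would share few. Slopes are the log2 change of a miRNA for each log2 unit of the member, both as log2(CPM + 1), and r is the correlation after the diet means are taken out.

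The balance of directions depended on the scaling. With total counts in place of TMM, 49 miRNAs rose and 8 fell with miR-451, and with upper quartile scaling 11 rose and 27 fell. For miR-486, 2 rose and 23 fell with total counts, and 44 rose and 11 fell with upper quartile scaling. The median r over the 418 miRNAs was 0.00 with miR-451, 0.00 with miR-144 and 0.02 with miR-486 as deposited, and 0.12, 0.09 and -0.05 with total counts. The slopes of the 58 and of the 21 had the same sign under the 3 scalings. Fewer passed the threshold under each of them, namely 19 of the 58 with miR-451 and 11 of the 21 with miR-486.

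**Figure D3:**
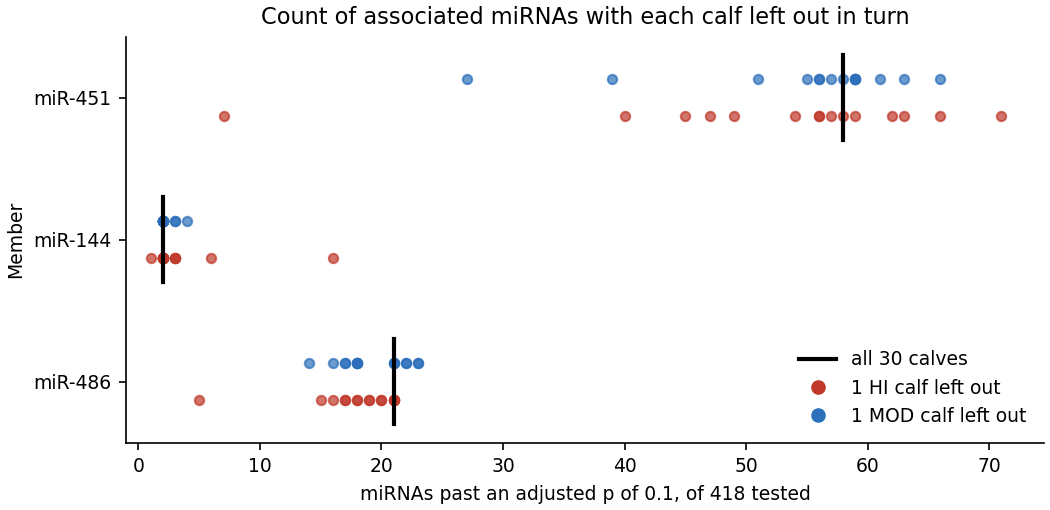
Number of miRNAs past an adjusted p of 0.1, of 418 tested, for each of the 3 members, with all 30 calves (black line) and with each calf left out in turn (points, by diet). The count for miR-451 ran from 7 without HI calf 1 to 71, that for miR-144 from 1 to 16 and that for miR-486 from 5 without HI calf 15 to 23.

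With miR-451, 7 miRNAs were called whichever calf was left out. Beside miR-144, these were miR-19b, miR-19a and miR-324, which rose with it, and miR-92b, miR-369-5p and miR-744, which fell. miR-19b had a slope of 0.42 ± 0.09 (SE) (r = 0.65, adjusted p = 0.00994, at most 0.0240 with a calf left out) and ran from 503 to 1665 CPM in HI calves and from 600 to 1154 CPM in MOD calves. miR-19a had a slope of 0.51 ± 0.12 (r = 0.61, adjusted p = 0.0183). These are closely alike in sequence. Whole reads were found in 30 of 30 libraries for miR-19a but in 13 of 30 for miR-19b. Where the fractions of miR-19b came from was not tested. miR-324, whose level was 24.7 to 54.4 CPM over the calves, had a slope of 0.27 ± 0.06 (r = 0.66, adjusted p = 0.0139). miR-92b had the steepest fall of the 7, with a slope of -0.39 ± 0.08 (r = -0.67, adjusted p = 0.00693), and ran from 2187 to 7096 CPM in HI calves.

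miR-19a and miR-19b belong to the miR-17-92 cluster, a single transcript that also gives miR-17-5p, miR-18a, miR-20a and miR-92a and is known for driving proliferation, among others of blood precursors. The cluster was looked at after these values had been seen. Of its 6 members, 5 rose with miR-451, where 6.22% of the 418 rose. The 5 include miR-19a and miR-19b, whose calls led to the cluster, so the share of 5 in 6 is no separate support. They were the 2 above, miR-18a (slope 0.35, r = 0.56, adjusted p = 0.0344), miR-17-5p (slope 0.16, r = 0.52, adjusted p = 0.0643) and miR-20a (slope 0.20, r = 0.47, adjusted p = 0.0811). The exception, miR-92a, had a slope of -0.05 (r = -0.21, adjusted p = 0.589) and, like miR-19b, fractional reads, being whole in 11 of 30 libraries. With a calf left out, the highest adjusted p was 0.151 for miR-18a, 0.158 for miR-17-5p and 0.279 for miR-20a. None of these 3 was among the 7 called without HI calf 1. None of the 6 was called with miR-486, where the coefficients ran from -0.18 to 0.22. Other clusters were looked at too. In the miR-106a-363 cluster, miR-106a and miR-363 were not called with miR-451 (adjusted p of 0.436 and 0.479). Of the miR-23/27/24 miRNAs, miR-23b-3p rose (adjusted p = 0.0698), miR-27a-3p and miR-27b fell (0.0478 and 0.0643), and miR-23a and miR-24-3p were not called. Those 3 calls were each lost without HI calf 1.

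Among the remaining miRNAs named by the rule (6 highest and 6 lowest r), let-7b (r = 0.59) and the smooth muscle miRNA miR-145 (r = 0.58) rose with miR-451, with adjusted p of 0.0306 and 0.0249. miR-15a (r = -0.62), miR-151-5p (r = -0.62) and let-7g (r = -0.59) fell, with adjusted p of 0.0290, 0.0249 and 0.0643. Without HI calf 1 these adjusted p were 0.135 for let-7b, 0.283 for miR-145, 0.151 for miR-15a, 0.131 for miR-151-5p and 0.204 for let-7g. The 58 calls thus held 52 whose highest adjusted p came from leaving out HI calf 1.

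miR-144 had 2 calls, miR-451 itself (slope 1.07 ± 0.15, r = 0.79, adjusted p = 3.65e-05) and miR-92b (slope -0.51 ± 0.11, r = -0.64, adjusted p = 0.0204). Without HI calf 1 the adjusted p for miR-92b was 0.169. At an unadjusted p under 0.05 there were 62. The others that lay highest were miR-135a (r = 0.54), miR-324 (r = 0.52), miR-193b (r = 0.49), miR-323b-3p (r = 0.49) and the muscle miRNA miR-133b (r = 0.48), with adjusted p between 0.126 and 0.224. The lowest beside miR-92b were miR-11984 (r = -0.56), let-7g (r = -0.55), miR-30d (r = -0.55), miR-2285ba (r = -0.54) and miR-370 (r = -0.54), with adjusted p between 0.126 and 0.223. miR-101, which shares most of the seed of miR-144 and so many of its predicted targets, was at 7345 to 13239 CPM over the calves, and had r = 0.16 with miR-144 (adjusted p = 0.780).

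The miRNAs called with miR-486 were not among those called with miR-451, although a difference between the 2 members was not tested. Among the 14 that fell as miR-486 rose, 5 were called whichever calf was left out, namely miR-130b, miR-222, miR-146b, miR-212 and miR-301b. With miR-451 these had r of -0.31, 0.16, -0.09, -0.30 and -0.13, in that order. miR-130b had a slope of -0.85 ± 0.19 (SE) (r = -0.65, adjusted p = 0.0161, at most 0.0417 with a calf left out), and ran from 29.0 to 76.2 CPM in HI calves and from 19.9 to 55.0 CPM in MOD calves. Its genomic neighbour miR-301b had a slope of -0.73 ± 0.19 (r = -0.58, adjusted p = 0.0399). miR-222, which represses the stem cell factor receptor KIT in red cell precursors, had a slope of -0.67 ± 0.15 (r = -0.64, adjusted p = 0.0161), and its neighbour miR-221 had a slope of -0.49 ± 0.14 (r = -0.55, adjusted p = 0.0584). miR-212, a miRNA induced by CREB and by GnRH in gonadotrophs, had a slope of -0.47 ± 0.12 (r = -0.62, adjusted p = 0.0288), but miR-132 of the same transcript had r = -0.28 (adjusted p = 0.454). With upper quartile scaling the adjusted p for miR-212 was 0.101.

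miR-146b, an NF-kB target abundant in leukocytes, had the largest slope, falling by 2.15 ± 0.49 (SE) on the log2 scale for each log2 unit of miR-486 (r = -0.63, adjusted p = 0.0161). Its level was 299 to 1952 CPM in HI calves with a median of 697, and 244 to 3090 CPM in MOD calves with a median of 645. The coefficient was -0.82 among HI and -0.48 among MOD calves, -0.58 over the 21 libraries with lower label numbers and -0.66 over the 9.

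In the other direction, 7 miRNAs rose with miR-486, but with the 4 label number ranges as a block 0 rose and 5 fell. miR-2299-5p (slope 0.40 ± 0.11, r = 0.62, adjusted p = 0.0399) and the epithelial miR-200b (slope 0.30 ± 0.08, r = 0.59, adjusted p = 0.0416) lay highest. miR-181c (r = 0.54, adjusted p = 0.0670), the neural miR-9-5p (r = 0.53, adjusted p = 0.0656) and the abundant miR-26a (r = 0.53, adjusted p = 0.0670) followed, and miR-11977 (r = 0.52) did not pass (adjusted p = 0.133). miR-26a, miR-181c, miR-200b and miR-2299-5p passed no longer without HI calf 15, with adjusted p of 0.217, 0.246, 0.167 and 0.186. At the low end, miR-504 (r = -0.60, adjusted p = 0.0312) and miR-6529a (r = -0.59, adjusted p = 0.0416) were also lost without that calf, with an adjusted p of 0.167 for each. HI calf 15 had the lowest miR-486 of the 30 and the highest TMM factor, 1.21.

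**Figure D4:**
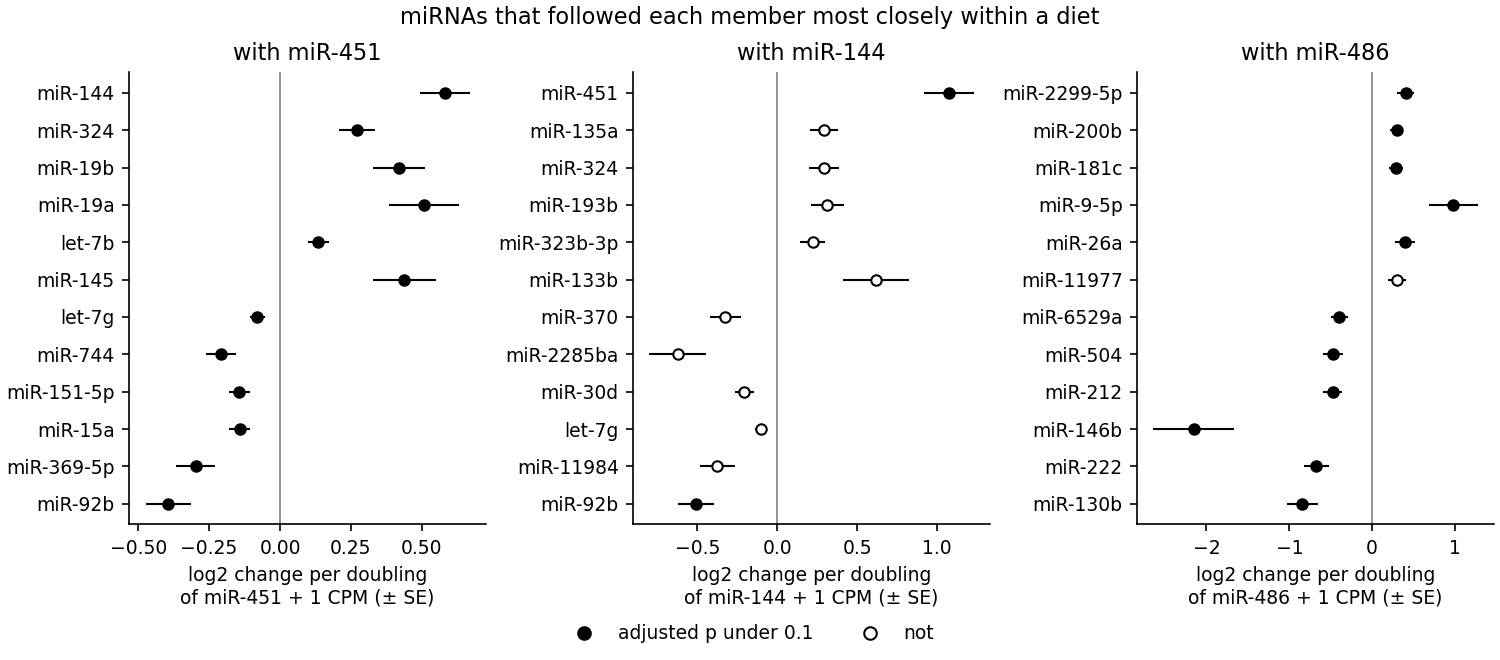
Slope of the 6 miRNAs with the highest and the 6 with the lowest r with each member, as the log2 change per log2 unit of the member with its standard error, from limma with diet in the fit. Filled points passed an adjusted p of 0.1: 12 of 12 with miR-451, 2 of 12 with miR-144 and 11 of 12 with miR-486, where miR-146b fell by 2.15.

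No difference between the diets in these associations was detected. The interaction of diet and member was past an adjusted p of 0.1 in limma for 0 of 418 miRNAs (0%) with each of miR-451, miR-144 and miR-486, and 12, 15 and 33 miRNAs, in that order, had an unadjusted p under 0.05. Fitted among HI calves alone, each member had 1 call, and among MOD calves alone each had 0, with 52, 27 and 53 at an unadjusted p under 0.05.

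Lists of miRNAs known from other cell types were then set beside the 3. Of 9 other miRNAs abundant in red cells (miR-16a, miR-16b, miR-15a, miR-92a, miR-25, miR-93, miR-20a, miR-363 and miR-185), which many tissues express as well, 1 rose and 2 fell with miR-451 (miR-20a, and miR-15a and miR-16b), and their median r was -0.02, against 0.00 over the 418, of which 6.22% rose and 7.66% fell. These 3 calls were lost without HI calf 1, with adjusted p of 0.279 for miR-20a, 0.151 for miR-15a and 0.131 for miR-16b. With miR-144 and with miR-486, 0 of the 9 were called, with median r of -0.05 and -0.02 (limma; over the 418, 62 and 61 had an unadjusted p under 0.05). The summed level of the 9 was 15575 to 17869 CPM in HI calves and 16072 to 18978 CPM in MOD calves, a narrower relative range than that of miR-451.

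Of 6 stromal and smooth muscle miRNAs, 3 rose with miR-451 (miR-145, miR-199a-5p and miR-214, adjusted p of 0.0249, 0.0732 and 0.0643) and 0 fell, against 6.22% and 7.66% of the 418, with a median r of 0.44. Without HI calf 1 their adjusted p were 0.283, 0.536 and 0.544. miR-143 had r = 0.42 (adjusted p = 0.112). The summed level ran from 32239 to 183489 CPM in HI calves and from 33411 to 76274 CPM in MOD calves. Of 4 striated muscle miRNAs tested of 7 listed, miR-133b rose with miR-451 (adjusted p = 0.0657, and 0.592 without HI calf 1), while the defining muscle miRNAs miR-1 and miR-206 had 0 reads in 29 of 30 libraries each. The sum of the striated muscle list was 58.1 to 157 CPM in HI calves and 60.3 to 84.3 CPM in MOD calves, highest in HI calf 1.

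Of 5 endocrine miRNAs, miR-375 fell with miR-451 (r = -0.51, adjusted p = 0.0497, and 0.204 without HI calf 1), and the other 4 had coefficients from -0.32 to 0.14. The endocrine sum ran from 140846 to 237704 CPM in HI calves and from 165290 to 235872 CPM in MOD calves. Of 7 white blood cell miRNAs, 0 were called with miR-451 and 0 with miR-144, and their median r was 0.00 and -0.10. Both miRNAs of endothelium, miR-126-5p and miR-126-3p, had coefficients between -0.16 and 0.01 with miR-451 and miR-144. The part of stroma, muscle or endocrine content in the associations of miR-451 was not tested.

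With miR-486 the white blood cell list stood lowest, with a median r of -0.33 against 0.02 over the 418, and 6 of its 7 members had negative coefficients. Of the 7, 1 was called, miR-146b, where 3.35% of the 418 fell. The myeloid miR-223 was at a mean of 1.12 CPM (r = -0.11), and miR-142-5p and miR-142-3p, which mark blood cells at large, had r of -0.35 and -0.33 (adjusted p of 0.322 and 0.380). miR-155 was the exception, with r = 0.35 (adjusted p = 0.322). Of the epithelial miR-200 family, 1 of 5 rose with miR-486, miR-200b, with a median r of 0.34, and of 4 neural miRNAs tested 1 rose, miR-9-5p, where 1.67% of the 418 rose. As given above, miR-200b was lost without HI calf 15, and miR-9-5p was lost without HI calf 2 (adjusted p = 0.185). The single miRNAs miR-23a and miR-205, a miRNA of surface epithelium, had r of 0.41 and 0.40 with miR-486 (adjusted p of 0.225 and 0.224).

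Sums of the lists, depth and the TMM factor gave 39 relations with the 3 members, each over 30 calves centred on their diet means. The strongest was between miR-486 and the white blood cell sum (r = -0.66, permutation p within diet = 3e-05, adjusted over the 39 relations 0.00117; rho = -0.70, permutation p = 5e-05, adjusted 0.00195). It was -0.78 among HI and -0.64 among MOD calves, -0.66 over the 21 and -0.68 over the 9 libraries, and -0.69 without HI calves 8 and 15, the farthest from the median of miR-486. miR-146b had the highest mean of the 7 summed miRNAs (865 CPM). With miR-146b taken out of the sum, r was -0.29 and the adjusted p was 0.302, a step chosen after the data had been seen. The white blood cell sum was 965 to 2707 CPM in HI calves and 800 to 3968 CPM in MOD calves.

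**Figure D5:**
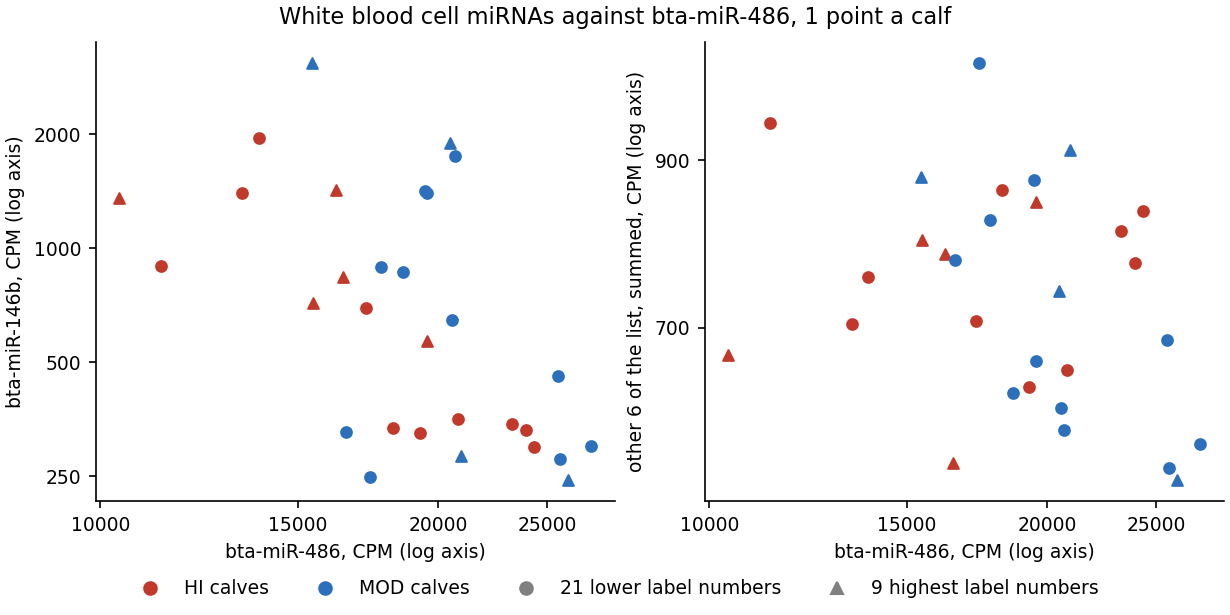
miR-146b (left) and the sum of the other 6 white blood cell miRNAs (right) against miR-486, in CPM on log axes, 1 point a calf, coloured by diet. miR-146b ran from 244 to 3090 CPM and was lower where miR-486 was high (r = -0.63 within diet), and the other 6 together varied from 556 to 1042 CPM (r = -0.29).

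By Pearson's r 6 further relations passed, and none of these 6 passed by rank. The sum of the other red cell miRNAs was lower where miR-144 was high (r = -0.57, permutation p = 7.3e-04, adjusted 0.0142; rho = -0.48, adjusted 0.176) and where miR-451 was high (r = -0.44, permutation p = 0.0162, adjusted 0.0903; rho = -0.36, adjusted 0.246). Leaving out HI calf 1, the coefficient was -0.51 with miR-144 (adjusted 0.0637) and -0.35 with miR-451 (adjusted 0.251). With total counts in place of TMM the coefficients were -0.06 and 0.11, so that the sign with miR-451 turned. With miR-92a, the most abundant of the 9, taken out of the sum, neither passed (adjusted 0.201 for each). The endocrine sum was lower where miR-451 was high (r = -0.53, permutation p = 0.00567, adjusted 0.0503; rho = -0.35, adjusted 0.246) and where miR-144 was high (r = -0.53, permutation p = 0.00693, adjusted 0.0503; rho = -0.45, adjusted 0.197), and both coefficients were -0.44 without HI calf 1 (adjusted 0.155 and 0.161). With miR-375, the most abundant of the 5, taken out of the sum, they were -0.20 (adjusted 0.557) and -0.30 (adjusted 0.357). The striated muscle sum was higher where miR-144 was high (r = 0.58, permutation p = 0.00579, adjusted 0.0503; rho = 0.37, adjusted 0.237), with r = 0.37 without HI calf 1 (adjusted 0.292) and 0.50 without miR-499 in the sum (adjusted 0.201). miR-101 was higher where miR-486 was high (r = 0.50, permutation p = 0.00774, adjusted 0.0503; rho = 0.37, adjusted 0.237), with r = 0.25 without HI calves 8 and 15.

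Total reads had r of -0.05 with miR-451 (permutation p = 0.799, adjusted 0.867; rho = -0.09), 0.00 with miR-144 (permutation p = 0.997, adjusted 0.997; rho = 0.08) and -0.12 with miR-486 (permutation p = 0.558, adjusted 0.726; rho = -0.23). The TMM factor, by which the deposited values had been divided, had r of 0.35 with miR-451 (permutation p = 0.101, adjusted 0.261; rho = 0.42, adjusted 0.197), 0.22 with miR-144 (permutation p = 0.328, adjusted 0.534; rho = 0.41, adjusted 0.197) and -0.45 with miR-486 (permutation p = 0.0280, adjusted 0.137; rho = -0.13, adjusted 0.735). Without HI calves 8 and 15, which had the highest factors, the coefficient with miR-486 was 0.04. Without HI calf 1 the relation of the factor with miR-451 passed the threshold (r = 0.59, adjusted p = 0.0158).

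The members were also entered as covariates in the comparison of diets for the other 416 miRNAs. Without a covariate, limma called 15 of 416 (3.61%) at an adjusted p under 0.1. With miR-451 as a covariate 8 were called, of which 6 were among the 15, with miR-144 6 were called (5 among the 15), and with miR-486 9 were called (7 among the 15). miR-195, the first of the 15 by p, was higher in HI calves by 0.41 on the log2 scale (adjusted p = 0.0175), by 0.30 with miR-451 as a covariate (adjusted p = 0.0908), by 0.33 with miR-144 (adjusted p = 0.1001) and by 0.46 with miR-486 (adjusted p = 0.0102), and was named after its values had been seen. As the members were chosen for differing between the diets, each covariate also takes up part of the diet term.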

How the data were processed

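Small RNA libraries of 30 anterior pituitaries were profiled with miRDeep2 on the ARS-UCD1.2 genome, after adapter trimming with cutadapt, named as version 2.6 in the submitters' processing notes. The authors deposited a scaled signal for each mature miRNA, namely CPM divided by TMM factors, rather than raw counts. Reads were worked back from these by taking the commonest value above 0 in a library as 1 read. At least 93.7% of values per library were then whole within 0.1 read, and the largest difference between recomputed and deposited TMM factors was 6.27e-06. No 2 libraries were copies (chi-square per degree of freedom at least 84.9 over 435 pairs), and 0 columns were unused.

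limma 3.58.1 in R 4.3.3 (eBayes with trend) was fitted to log2(CPM + 1), for 419 miRNAs kept by filterByExpr of edgeR 4.0.16, with Benjamini-Hochberg adjustment over the table and a threshold of 0.1. On recovered reads, edgeR's quasi-likelihood test called 62 miRNAs with miR-451, 8 with miR-144 and 21 with miR-486. Permutation tests were two-sided with 100000 resamples. In simulated data with a slope of 0.5 given to 200 of 418 miRNAs, limma called 182 with miR-451, 156 with miR-144 and 137 with miR-486, beside 13, 13 and 6 unchanged miRNAs, and with no slope 0 for each. Simulated miRNAs were drawn independently of one another, with no calf set apart as HI calf 1 was. Median absolute slopes in the data were lower, at 0.084 with miR-451, 0.101 with miR-144 and 0.137 with miR-486. The simulation therefore gives no error rate for the calls made here.

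The 6 highest and 6 lowest r per member, list members, miR-101 and miR-23a were named by rule. The members, the lists and the set of 9 libraries were chosen with earlier results of these data known.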

Additional observations from a re-analysis of the deposited data

How the results depend on the processing

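No paired analysis was possible because calves of the 2 diets share no replicate number in their labels. For miR-451, against 58 calls, the count was 38 with upper quartile scaling, 28 with no filter on low values (839 tested), 38 with ranks of the member, 1 among HI calves alone and 0 among MOD calves alone, and 7 to 71 with each calf left out. For miR-144, against 2, it was 6 with upper quartile scaling, 5 with the 4 label number ranges as a block, 8 by edgeR's quasi-likelihood test, 1 with ranks, 1 among HI and 0 among MOD calves, and 1 to 16 with a calf left out (16 without HI calf 7). For miR-486, against 21, it was 55 with upper quartile scaling, 9 with no filter, 5 with those ranges as a block (0 rose and 5 fell), 0 over the 21 libraries with lower label numbers (64 at an unadjusted p under 0.05), 1 among HI and 0 among MOD calves, and 5 to 23 with a calf left out. Fitting 1 diet or the 21 libraries leaves fewer samples, and dropping the filter tests more miRNAs; the cause of the other changes was not tested. The count of diet calls, 15, became 9 with total counts, 8 with miR-451, 6 with miR-144 and 9 with miR-486 as a covariate.

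Among MOD calves the r of miR-451 and miR-144 passed the threshold with total counts (0.57) and ran from 0.34 to 0.59 with a calf left out. Against 7 of 39 relations with list sums, 2 passed with total counts, 3 over the 21 libraries, 1 by rank, 3 without HI calf 1, and 0 when each list lost its most abundant miRNA (9 at an unadjusted p under 0.05), settings chosen after seeing the data. The diet differences of the 3 members ran from 0.44 to 0.63 for miR-451, 0.38 to 0.52 for miR-144 and -0.30 to -0.21 for miR-486 with a calf left out. The slopes of the miRNAs called with each member kept their sign with total counts and with upper quartile scaling. Only 19 of the 58 calls with miR-451 and 11 of the 21 with miR-486 passed under all 3 scalings. The r of miR-451 with the other red cell sum, which had passed, turned from -0.44 to 0.11 with total counts. miR-144 had the lowest depth of the 3, at 15 to 110 reads a library.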
